A study of Bos taurus with 179 samples.

Results

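The last step of oocyte growth in the series was the comparison of bovine oocytes of 110–119 μm in diameter with oocytes >120 μm. The members were 33 of the 179 oocytes deposited, taken by the size group and replicate in the sample labels and kept only if the study lists them among its analysed oocytes, which left out 1 oocyte of 139.09 μm. Of these, 19 oocytes measured 110–119 μm (12 in replicate 1 and 7 in replicate 2) and 14 measured >120 μm (10 and 4). Every difference below is the level at >120 μm minus the level at 110–119 μm.

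Oocytes of *Bos taurus* came from abattoir ovaries, were denuded of their surrounding cells, measured and frozen singly, and the polyadenylated mRNA of each was amplified by Smart-seq2 and sequenced. No treatment or genotype distinguished the groups. According to the study's methods, fully-grown oocytes were aspirated from follicles visible at the ovarian surface and growing oocytes were released by slicing the cortex, so how an oocyte was collected and its size cannot be told apart, and the labels name neither the follicle nor the animal. The 2 replicates were separate library preparations with different read lengths.

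During growth an oocyte rests in prophase of meiosis I and stores the mRNA and organelles that the embryo later relies on. Close to full size, transcription ceases and the chromatin condenses, and from then on transcripts are mostly kept, lengthened at their poly(A) tails, shortened or degraded. Because the mRNA was captured by its poly(A) tail, a change in tail length and a change in the number of molecules cannot be told apart in these values.

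The diameters ran from 110.50 to 119.00 μm in the smaller group and from 121.50 to 135.00 μm in the larger. An oocyte of the smaller group had between 328481 and 5958623 counts on genes (median 1986086) and an oocyte of the larger between 566827 and 8038061 (median 1457609.5). The sum of the 4 replicate 2 oocytes >120 μm held 4467434 counts, the fewest of the 4 sums compared, and the oocyte of 125.60 μm gave 33.1% of the replicate 1 sum. The 8 oocyte markers summed to between 6469 and 16840 CPM (counts scaled to a fixed library size with TMM factors) at 110–119 μm and between 7045 and 14508 CPM at >120 μm. The 6 markers of granulosa and cumulus cells summed to at most 7.67 and 6.43 CPM, the 6 of theca and stroma cells to at most 55.6 and 39 CPM, with COL1A1 and COL3A1 at 0 in every oocyte of both groups, and the 6 of blood and immune cells to a median of 37.2 and 53.8 CPM and to at most 89.9 and 152.001 CPM, with CD74 at 0 throughout. Most of the blood and immune sum was CSF1R (medians 34.6 and 47.3 CPM), which was called higher at >120 μm in replicate 1 alone (log2 fold change 0.75, edgeR adjusted p = 0.0264) and not with both replicates (0.45, adjusted p = 0.273), and its part in the results was not tested. FSHR was at 0 in the smaller group and AMHR2 in the larger.

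Few genes were called when counts were added up by replicate within a size group, which makes the library replicate the unit. Each group then has only 2 sums, so a gene that differs can easily go uncalled. With edgeR's quasi-likelihood test and Benjamini-Hochberg adjustment, 1 of 14087 genes (0.0071%) had an adjusted p below 0.05 and it was lower at >120 μm, while 0 genes were higher. At an unadjusted p below 0.05 there were 1564 genes, and DESeq2 on the same sums called 2 genes higher and 9 lower. With each oocyte as a unit, as the study had it, 518 of 10993 genes (4.71%) were called, 93 of them higher (0.846%) and 425 lower (3.87%). Oocytes of 1 animal count as independent in that fit and no label names the animal. Its p-values thus measure only the spread between single oocytes, taken over all 8 size groups. All 518 genes had the same sign in the sums, and 83 of them had an unadjusted p of 0.05 or more there. Both fits compare the same 33 oocytes, so the shared signs are not independent, and both were made with the oocytes of all 8 size groups. Below, rose and fell are used of genes called with single oocytes as units, and the adjusted p given is from that fit unless the sums are named. Most of the differences were moderate. The called genes that rose had a median log2 fold change of 0.80 and those that fell one of −0.85, and 19 and 101 of them exceeded 1 in size. A gene was given a symbol only where the study's tables pair its ID with one, which held for 23 of the genes that rose and 90 of those that fell.

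Replicate 1 held most of the calls. In that replicate alone 721 of 11655 genes (6.19%) were called higher and 818 (7.02%) lower. In replicate 2 alone, with 7 and 4 oocytes, 0 of 11305 genes were called by edgeR (312 of the 11305 had an unadjusted p below 0.05). The genes called in replicate 1 alone could be looked up in replicate 2, whose oocytes had no part in choosing them. Of the 697 genes higher in replicate 1 and tested in replicate 2, 501 (71.9%) were also higher there, against 47.5% of all genes tested. Of the 812 lower genes, 668 (82.3%) were also lower there, against 52% of all genes. Their median log2 fold changes were 0.90 and −0.97 in replicate 1, where they were chosen for their change, and 0.20 and −0.31 in replicate 2. Genes chosen in this way tend to have smaller values in other oocytes, so nothing is read from that difference. The difference between the replicates' fold changes was itself called for 0 of 10993 genes by edgeR (538 had an unadjusted p below 0.05), a test added after the data were seen. Across the 10952 genes tested in each replicate alone, the fold changes of the replicates had a Pearson r of 0.264, a description over genes that are not independent. The shares of genes with the same sign have the same limit, and they were set beside all genes, not genes of a like level.

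**Figure D1:**
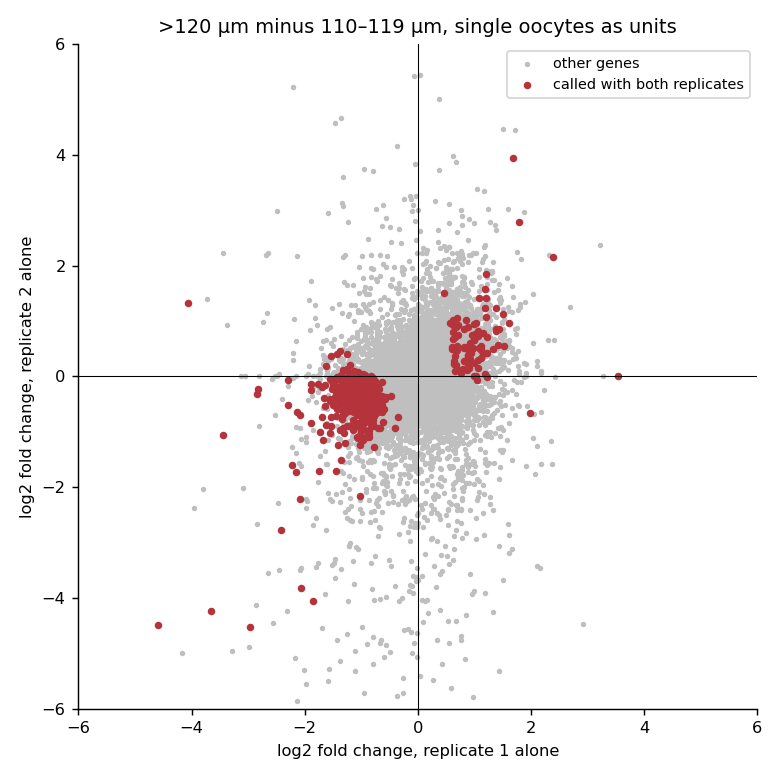
Log2 fold change of each of 10952 genes (>120 μm minus 110–119 μm) in replicate 1 alone (x axis) and in replicate 2 alone (y axis), with single oocytes as units, and in red the genes called when both replicates were fitted together. Among the red points, 93 are higher and 425 lower at >120 μm with both replicates fitted. 15 genes lie beyond the axes.

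How many genes were called depended on single oocytes, most clearly in a fit of the 33 oocytes alone. Without the oocyte of 125.60 μm, the deepest of the group >120 μm, the single-oocyte fit called 42 genes higher and 498 lower. In a fit of the 33 oocytes alone, which called 434 genes with 87 of them higher, leaving out each oocyte in turn gave between 38 calls, without the 110–119 μm oocyte of 112.50 μm, and 1034 calls, without the replicate 2 oocyte of 135.00 μm. A gene named here is thus one of a set whose size moved with 1 oocyte, while its level in each oocyte is given as measured.

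The 1 gene called in the sums was DMAC1, a nuclear gene for an assembly factor of mitochondrial complex I. It was a low transcript in both groups. It had 143 counts in the 19 oocytes of 110–119 μm, of which 68.5% lay in 3 oocytes and 42 in 1 oocyte of 119.00 μm, and 9 oocytes had none. At >120 μm it had 3 counts in all, with 11 of 14 oocytes at 0. Per total count the ratio of the larger to the smaller group was 0.0325, with an exact 95% interval of 0.00662 to 0.0969 that covers counting error only. The sums gave a log2 fold change of −5.22 (SE 0.76, adjusted p = 0.0198) and the single oocytes one of −4.61 (SE 0.81, adjusted p = 0.000291). The gene was not called without the replicate block, with oocytes thinned to 250000 counts, with all 179 oocytes, or without either sum of >120 μm. The median per oocyte was 9.77 CPM in oocytes <60 μm, 2.57 CPM at 100–109 μm, 0.45 CPM at 110–119 μm and 0 at >120 μm.

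Among genes with a symbol and the same direction in both replicate sums, the 15 with the smallest p in the sums that were higher at >120 μm had log2 fold changes of 0.88 to 4.96, and the 15 that were lower −5.22 to −0.94. The value of 4.96 (SE 1.59) was that of ENTHD1, which had 1 count in all oocytes of 110–119 μm and 28 in those >120 μm, so its size is poorly determined. The adjusted p in the sums was 0.427 for each of the 15 higher genes. With single oocytes as units, 6 of the 13 higher genes tested rose (CTNNA2, CDYL2, CTSD, ATG4D, ADAMTS4 and SAMD4B) and 10 of the 15 lower genes fell (DMAC1, CCL1, CENPS, CEBPZOS, C19H17orf58, CMC1, CCNH, CREG1, CAPZA2 and ATXN3). These genes were picked by their p in the same oocytes, so the second count adds no independent support.

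Of the genes that fell, CCNH, the cyclin partner of the CDK-activating kinase, had between 143.9 and 940 CPM at 110–119 μm (median 434.7) and between 87.9 and 322 CPM at >120 μm (median 206). All 14 larger oocytes lay below the median of the smaller group, though the groups overlapped, and the log2 fold change was −1.15 (SE 0.23, adjusted p = 0.00224). CENPS, a histone-fold protein of the kinetochore and of the Fanconi anaemia pathway, had between 80 and 298.4 CPM (median 159) at 110–119 μm and between 28.2 and 163 CPM (median 64.4) at >120 μm. For CENPS 10 of the 14 larger oocytes were below every smaller oocyte, and it fell by 1.22 on the log2 scale (SE 0.27, adjusted p = 0.00568).

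CREG1, a secreted lysosomal glycoprotein, had between 200 and 1263 CPM (median 691) in the smaller oocytes and between 179 and 555 CPM (median 359.01) in the larger, all 14 of which lay below the smaller group's median. It fell by 0.80 (SE 0.17, adjusted p = 0.00478), and its change in replicate 1 (−0.85) was nearly that in replicate 2 (−0.84). C19H17orf58 was alike in this, with −1.02 and −1.24 in the replicates and medians of 37.4 and 20.3 CPM. CCL1, a chemokine gene, had medians of 35.6 and 12.5 CPM, and all 14 larger oocytes were below the median of the smaller ones (log2 fold change −1.48, SE 0.37, adjusted p = 0.0105). CAPZA2, a subunit of the capping protein of actin filaments, had medians of 264.9 and 151.7 CPM, and its change was −1.44 in replicate 1 and −0.36 in replicate 2.

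**Figure D2:**
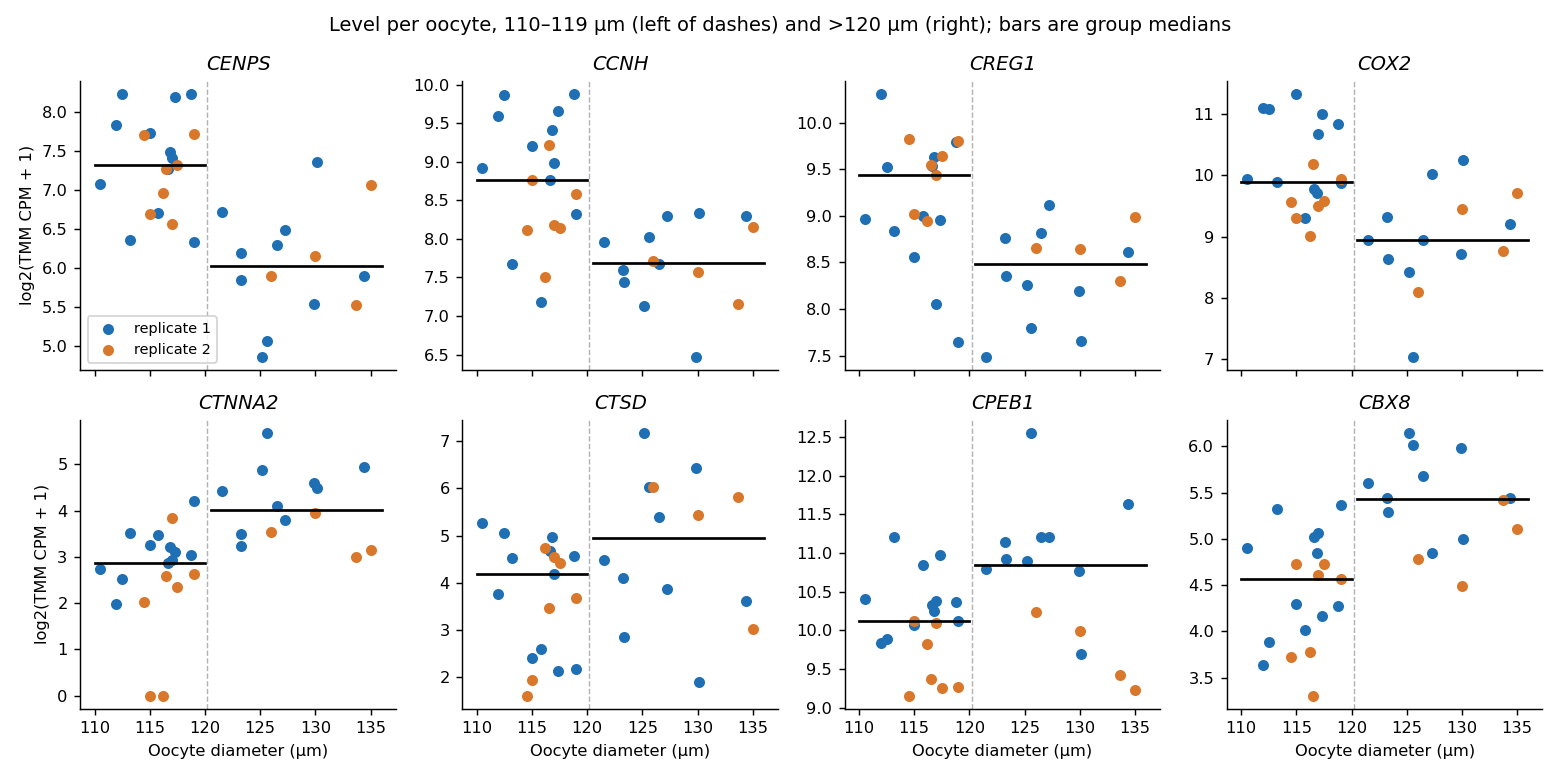
Level of 8 genes in each of the 33 oocytes, as log2(TMM CPM + 1), against oocyte diameter in μm, with replicate 1 in blue, replicate 2 in orange and black bars at the group medians. The upper 4 genes lie lower and the lower 4 higher at >120 μm, and in every panel the groups overlap, as for CCNH (143.9 to 940 and 87.9 to 322 CPM).

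Of the genes that rose, CTNNA2, the neuronal form of the alpha-catenin that links cadherins to actin, had between 0 and 17.4 CPM (median 6.29) at 110–119 μm and between 6.97 and 49.9 CPM (median 15.3) at >120 μm. All 14 larger oocytes lay above the median of the smaller group and 6 lay above every smaller oocyte, and it rose by 1.42 (SE 0.34, adjusted p = 0.00842), with 1.51 and 1.13 in the replicates alone. CTSD, the lysosomal aspartic protease cathepsin D, ranged from 2.04 to 37.7 CPM (median 17.1) and from 2.69 to 143 CPM (median 31.3). For CTSD 7 larger oocytes exceeded every smaller one, while the rest spread over the same range as the smaller group (log2 fold change 1.29, SE 0.38, adjusted p = 0.0294). ATG4D, a protease that processes the ATG8 proteins of autophagy, had medians of 11.8 and 25.6 CPM and rose by 1.17 (SE 0.33, adjusted p = 0.0225). CDYL2, a chromodomain protein, was near its detection limit in the smaller group, with 7 of 19 oocytes at 0 and a median of 0.657 CPM, and had 1 of 14 at 0 and a median of 4.51 CPM in the larger (adjusted p = 0.0245). ADAMTS4, a secreted metalloprotease, had medians of 9.86 and 16.7 CPM (adjusted p = 0.0252). RPUSD1 and ENTHD1, among the 15 higher genes in the sums, were too low for the single-oocyte fit, with medians of 0 and 2.22 CPM and of 0 and 0.975 CPM.

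Among the gene IDs without a symbol, ENSBTAG00000040202 had the smallest p in the sums of the lower ones, with between 337 and 9820 CPM (median 1077) in the smaller oocytes and between 99.1 and 1031 CPM (median 403) in the larger. It fell by 2.02 (SE 0.42, adjusted p = 0.00374). ENSBTAG00000003797 also fell (−1.02 in replicate 1 alone and −2.16 in replicate 2 alone, adjusted p = 0.00895 with both), from a median of 29 CPM to one of 12.9 CPM. Of the higher ones, ENSBTAG00000030255 rose by 1.14 (SE 0.33, adjusted p = 0.0247), from 50.5 to 71.9 CPM, and ENSBTAG00000012059 had a log2 fold change of 1.40 (SE 0.48) with an adjusted p of 0.0669.

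Gene groups were described by the number of members called with single oocytes and by their median there and in the sums. Over all genes 0.846% rose and 3.87% fell, and the median was 0.06 with single oocytes and 0.02 in the sums. The members tested all have symbols that begin with A, B or C, so a list covers only a part of the process or complex it is named for. In these lists, of 4 to 37 members tested, at most 3 were called in all, and nothing is read from such counts about a list as a whole. Of 35 genes tested for chromosome segregation and the kinetochore, 1 rose and 1 fell, with a median of −0.16 (−0.22 in the sums), while in replicate 1 alone 3 were called higher and 2 lower. The gene that rose was AURKC, the meiotic Aurora kinase of the chromosomal passenger complex, with 83.8 to 295.99 CPM (median 129) in the smaller and 83.6 to 546 CPM (median 257.9) in the larger oocytes. It rose by 0.78 (SE 0.20, adjusted p = 0.0108), by 1.07 in replicate 1 alone and 0.16 in replicate 2 alone. AURKA, the Aurora kinase of the spindle poles and among the high transcripts of these oocytes, had medians of 4749 and 5302 CPM and an adjusted p of 0.658. CDC20, the activator of the anaphase promoting complex, had medians of 191 and 356.5 CPM (log2 fold change 0.70, SE 0.30, adjusted p = 0.135), and CENPH of the inner kinetochore had 278.2 and 220 CPM (adjusted p = 0.101).

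Of the 37 cyclins, cyclin-dependent kinases and CDC25 phosphatases tested, 3 fell and 0 rose, with a median of −0.07 (−0.17 in the sums), while in replicate 1 alone 2 were called higher and 5 lower. Beside CCNH these were CDK1 and CCNK. CDK1, the kinase of maturation promoting factor, had between 243 and 1408 CPM (median 686) in the smaller oocytes and between 173 and 895 CPM (median 391) in the larger, and fell by 0.78 (SE 0.21, adjusted p = 0.0164). In replicate 2 alone the change of CDK1 was −0.25. CCNK, a cyclin of the kinases that phosphorylate RNA polymerase II, had medians of 128.3 and 76 CPM and a nearly equal change in both replicates, −0.84 and −0.80 (adjusted p = 0.0402). Of the 12 subunits of the anaphase promoting complex tested, with a median of −0.07 (−0.26 in the sums), 1 fell, CDC27 (log2 fold change −0.82, SE 0.23, adjusted p = 0.0211). The level of CDC27 depended on the replicate, with medians of 303 and 188 CPM in replicate 1 and of 1338 and 941 CPM in replicate 2. None of 29 genes for DNA replication and its checkpoint were called, with a median of −0.01 (−0.10 in the sums), while in replicate 1 alone 6 were called higher and 2 lower. CDT1 and CDC45, which license and fire replication origins, had log2 fold changes of 0.94 and 0.88 with adjusted p of 0.199 and 0.110.

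Of 23 genes tested for deadenylation and the translational control of stored mRNA, 1 was called (2 higher and 3 lower in replicate 1 alone). The gene called was CPEB1, which rose. It encodes a protein that binds the cytoplasmic polyadenylation element of stored transcripts. It had between 569 and 2359 CPM (median 1109) in the smaller oocytes and between 599 and 6000 CPM (median 1840) in the larger, and rose by 0.61 (SE 0.16, adjusted p = 0.0139). Taken apart, replicate 1 gave a change of 0.80 and replicate 2 one of 0.14. The median of the 23 genes was −0.29 (−0.37 in the sums). Of 28 splicing genes 1 fell, BCAS2, a core component of the PRP19 complex, with medians of 205 and 123 CPM, and the list's median was −0.11 (−0.19 in the sums). In replicate 1 alone 2 splicing genes were called higher and 1 lower. None of 8 cleavage and polyadenylation genes were called, with a median of 0.05 (0.14 in the sums, between −0.29 and 0.30 under the alternatives), and in replicate 1 alone 2 were called higher and 1 lower.

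Transcripts of the mitochondrial genome were lower in the larger oocytes of replicate 1, where all 4 were called, while in replicate 2 only COX2 was on the lower side. The 4 genes with a symbol of their own had a median log2 fold change of −0.87, and COX2 and ATP8 fell. COX2, cytochrome c oxidase subunit II, had between 514 and 2568 CPM (median 952) at 110–119 μm and between 130 and 1212 CPM (median 491) at >120 μm, and 8 of the 14 larger oocytes were below every smaller one. It fell by 1.11 (SE 0.27, adjusted p = 0.0103), with −1.37 in replicate 1 and −0.50 in replicate 2. ATP8, a subunit of ATP synthase whose reading frame overlaps that of ATP6, fell by 0.85 (SE 0.25, adjusted p = 0.0321), with −1.19 and 0.20 in the replicates. COX1 had −1.48 and 0.67 and ATP6 −1.06 and 0.55, and neither was called when both replicates were fitted (adjusted p = 0.110 and 0.0716). The difference between the replicates had an unadjusted p of 0.000409 for ATP6, 0.00305 for COX1 and 0.00383 for ATP8, with adjusted p of 0.665, 0.972 and 0.980, so none of the 3 passed. Reads from ATP6 and ATP8 cannot be told apart where the genes overlap.

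As a share of all counts of an oocyte, these 4 mitochondrial genes held 0.829% ± 0.45 (SD, n = 19) at 110–119 μm, between 0.297% and 2.06%, and 0.533% ± 0.267 (SD, n = 14) at >120 μm, between 0.148% and 0.963%. The difference was −0.297 percentage points (two-sided permutation test within replicate, p = 0.0329, adjusted p = 0.0331 over 2 measures). Within replicate 1 the share fell from 1% to 0.474% (p = 0.0023, same permutation test), and within replicate 2 it was 0.531% and 0.679% (difference 0.147 points, two-sided exact permutation p = 0.358). Of the 24 nuclear-encoded subunits of ATP synthase and cytochrome c oxidase tested, 1 fell (2 in replicate 1 alone) and the median was 0.02, against −0.23 in the sums. The gene was COX6C, with between 323.9 and 2734 CPM (median 1023) in the smaller oocytes and between 72.8 and 1972 CPM (median 344) in the larger (log2 fold change −1.34, SE 0.33, adjusted p = 0.0103). Its change was −1.77 in replicate 1 and −0.13 in replicate 2 (p of the difference 0.014, adjusted p = 0.994). ATP5PD, which was not called, had medians of 670 and 289.4 CPM (edgeR adjusted p = 0.0672), with changes of −0.90 in replicate 1 and −0.14 in replicate 2. With single oocytes as units, 14 of the 24 fold changes were positive and 10 negative.

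**Figure D3:**
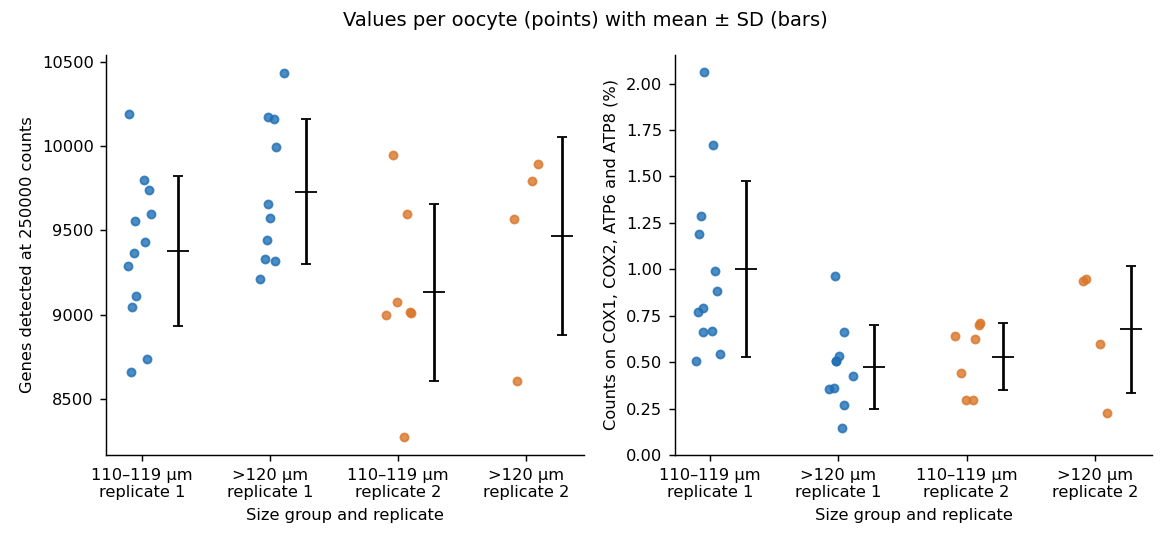
Genes detected at 250000 counts (left) and share of counts on COX1, COX2, ATP6 and ATP8 in percent (right), each oocyte a point by size group and replicate, with the mean ± SD as bars. The share is lower at >120 μm in replicate 1 (means 1% and 0.474%) and not in replicate 2 (0.531% and 0.679%), whereas the number of genes is higher at >120 μm in both.

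At equal depth, the larger oocytes in the study's list had on average more genes detected. The permutation tests of this measure and of the mitochondrial share count oocytes of 1 animal as independent. The study's list had been filtered by gene number and mitochondrial reads, and the part of that filter in these differences was not tested. With each oocyte thinned to 250000 counts, 9287 ± 478 genes (SD, n = 19) had a count at 110–119 μm and 9655 ± 473.5 (SD, n = 14) at >120 μm, a difference of 368.5 genes (two-sided permutation test within replicate, p = 0.0331, adjusted p = 0.0331). The individual oocytes overlapped widely, from 8271 to 10191 genes and from 8604 to 10438. Without thinning, the difference was 55.6 genes (permutation p = 0.86), and with the oocyte of 139.09 μm, which is not in the study's list, it was 206 genes at equal depth (permutation p = 0.362). Within replicate 1 alone the difference at equal depth was 353.5 genes (permutation p = 0.0757), and within replicate 2 alone 334.7 genes (permutation p = 0.336).

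In vesicle coats and ARF GTPases, 1 of 31 genes rose and 2 fell, with a median of 0.29 in the single-oocyte fit and 0.12 in the sums, and in replicate 1 alone 4 were called higher and 3 lower. AP2M1, the cargo-binding subunit of the plasma membrane adaptor, had medians of 97.7 and 145.7 CPM and rose by 0.54 (SE 0.17, adjusted p = 0.0386). AP1S2 and AP3B1, of the adaptors of the Golgi and the endosome, fell, with medians of 163 and 102 CPM (adjusted p = 0.0108) and of 96.5 and 71.9 CPM (adjusted p = 0.0455). Of 18 cullins and COP9 signalosome subunits, whose median was −0.04 (−0.21 in the sums) and of which 2 were called higher and 2 lower in replicate 1 alone, 1 fell, CUL4B, the scaffold of a ubiquitin ligase, with medians of 205 and 110 CPM (adjusted p = 0.0488). None of the 7 CCT chaperonin subunits were called, with a median of −0.08 (0.03 in the sums, where it turned to −0.01 with RLE size factors). In replicate 1 alone 2 were called higher and 1 lower, and the 2 with the smallest p differed in sign, CCT7 with 169 and 264.7 CPM and CCT8 with 1721 and 1422 CPM.

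Of 37 chromatin readers and remodelers, 1 rose and 2 fell, with a median of 0.12 (0.03 in the sums), and in replicate 1 alone 4 were called higher and 5 lower. CBX8, a chromodomain subunit of Polycomb repressive complex 1, had between 8.88 and 40.3 CPM (median 22.7) in the smaller oocytes and between 21.5 and 69.7 CPM (median 42.1) in the larger, and 8 of the 14 larger oocytes lay above every smaller one. It rose by 0.88 (SE 0.23, adjusted p = 0.0128), with 0.96 and 0.75 in the replicates. ARID4B, which recruits the SIN3 deacetylase complex, had between 31.9 and 243 CPM (median 121) and between 8.26 and 145 CPM (median 45.2), and fell by 1.08 (SE 0.27, adjusted p = 0.0105). BAZ1A, of the ACF remodeler, had medians of 304.8 and 192 CPM and fell by 0.84 (adjusted p = 0.0245).

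**Figure D4:**
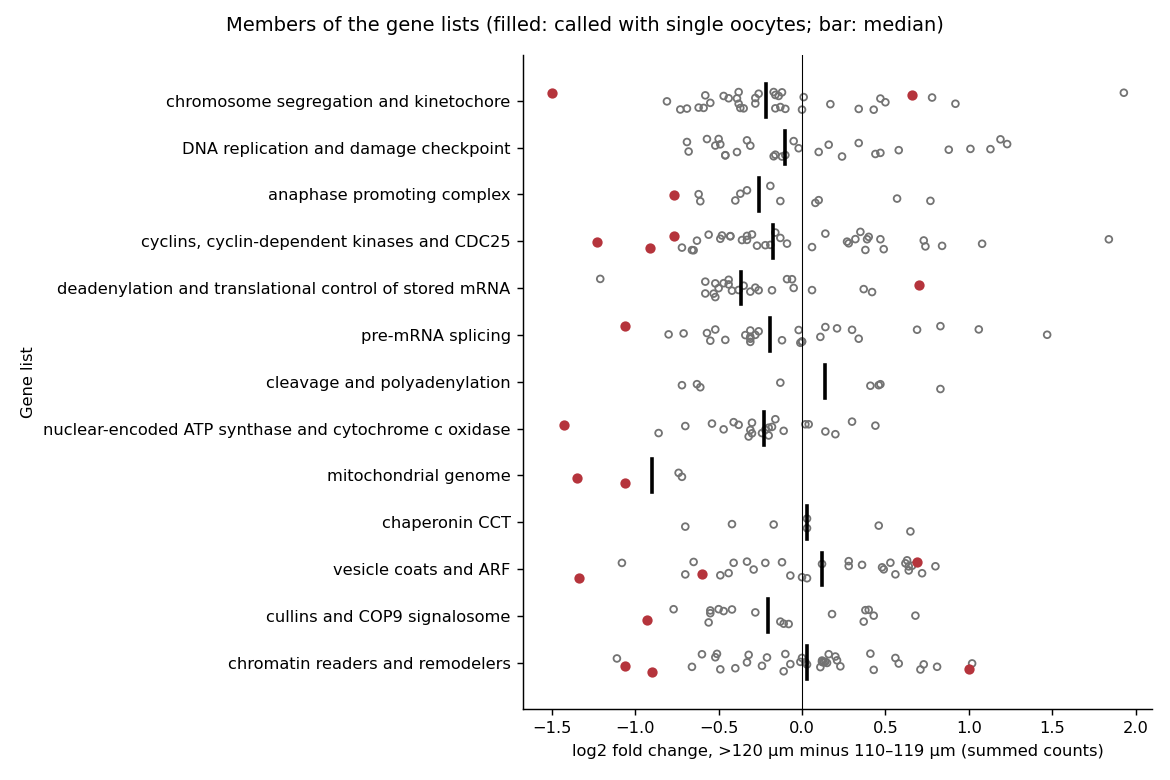
Log2 fold change in the summed counts (>120 μm minus 110–119 μm, x axis) of each tested member of the 13 function lists (y axis), with members called with single oocytes filled in red and the list median as a black bar. The median of the mitochondrial genome lies at −0.90 and those of the other lists between −0.37 and 0.14.

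The 8 oocyte markers did not move together. BOLL, an RNA-binding protein of germ cells, had medians of 48.9 and 32.8 CPM and fell by 0.82 (SE 0.21, adjusted p = 0.0108), and CPEB1 rose as given above. BTG4, the adaptor through which maternal mRNA is deadenylated at maturation, was the most abundant marker with medians of 6174 and 5291 CPM (log2 fold change −0.35, SE 0.20, adjusted p = 0.273). BMP15, the growth factor that the oocyte secretes to the cells around it, had 940 and 1756 CPM (log2 fold change 0.57, SE 0.24, adjusted p = 0.136). Its medians lay farther apart between replicates within the smaller group, with 572 CPM in replicate 1 and 2070 CPM in replicate 2, than between the groups. ACTL8, BCAR4, ASZ1 and CCNB3 had adjusted p between 0.137 and 0.481.

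Seen beside the group of 100–109 μm, 53 of the 79 genes chosen by rule to be named (67.1%) had a median at 110–119 μm that lay above (29) or below (24) those of both neighbouring groups in each replicate, by any margin. The same held for 41% of all 10993 genes, and the named genes were chosen by the step from 110–119 to >120 μm, so nothing is read from the difference. Examples follow with their medians in order of size, from 100–109 μm to >120 μm. CENPS had 55.6, 173 and 65.5 CPM in replicate 1 and 89.2, 153 and 64.3 CPM in replicate 2. COX6C had 243, 924 and 256 CPM in replicate 1 and 723, 1208 and 769 CPM in replicate 2. CDC27 had 161, 303 and 188 CPM in replicate 1 and 712, 1338 and 941 CPM in replicate 2. Among the genes that rose, CPEB1 had 1906, 1304 and 2100 CPM in replicate 1 and 1050, 662 and 850 CPM in replicate 2, lowest at 110–119 μm in both.

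For some genes the replicates differed in the size or order of these steps, so their medians over both replicates do not hold for each. CCNH had 189, 548 and 226 CPM in replicate 1, but 287.3, 289.1 and 198.5 CPM in replicate 2, where the medians of the first 2 groups lay close together. COX2 had 471.6, 1308 and 491 CPM in replicate 1 and 732, 753 and 565 CPM in replicate 2. CBX8 had 42.7, 23.3 and 45 CPM in replicate 1 and 22.9, 22.7 and 30.1 CPM in replicate 2. CTSD had 47.7, 19.5 and 18.7 CPM in replicate 1, with no rise in the median from 110–119 to >120 μm, and 31, 11.7 and 49 CPM in replicate 2. CCL1 had 38, 36.8 and 15.2 CPM in replicate 1, and 39.7, 16.4 and 11.4 CPM in replicate 2, where the larger step lay before 110–119 μm. The differences from the group of 100–109 μm were not tested here, and both steps share the oocytes of 110–119 μm, so a high or low level in that group alone would place it apart from both neighbours. The groups <60 μm, with 3 oocytes of replicate 1 and 18 of replicate 2, and 60–69 μm, with 17 and 8, hold the replicates in unequal shares, so their medians mix size and replicate.

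**Figure D5:**
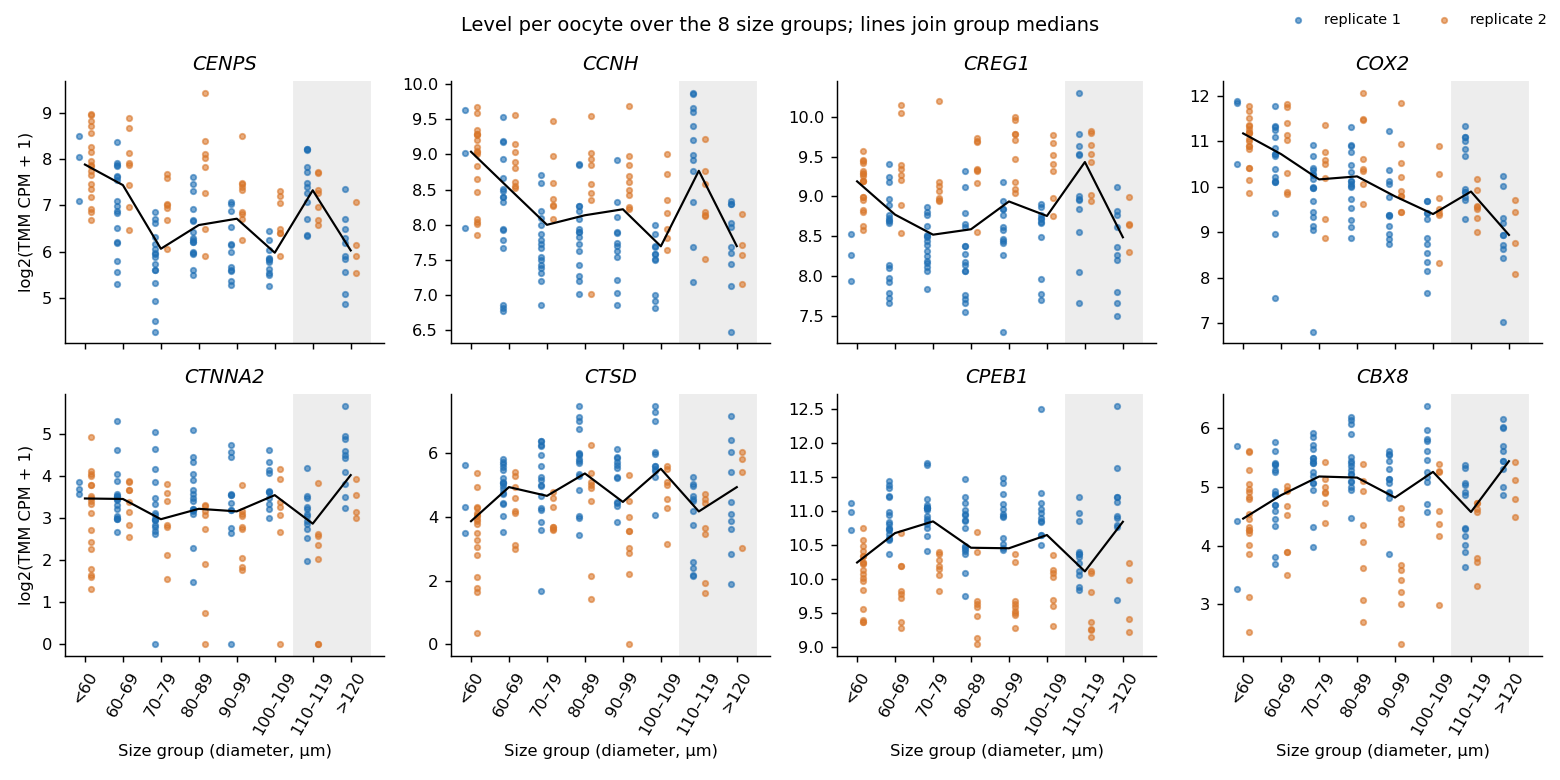
Level of 8 genes in the listed oocytes of all size groups, 1 point an oocyte, as log2(TMM CPM + 1), by size group in μm, with replicate 1 in blue, replicate 2 in orange, group medians over both replicates joined by a line and the groups compared shaded. For CENPS, CCNH, CREG1 and COX2 the line is higher at 110–119 μm than in both neighbouring groups, and for CTNNA2, CTSD, CPEB1 and CBX8 it dips there.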

How the data were processed

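The deposited values are raw counts per gene, 1 column per oocyte. The authors trimmed reads with Trim Galore (version 0.6.6), aligned them to the assembly ARS-UCD1.2 with HISAT2 and counted them with SeqMonk, and they excluded oocytes by counts, genes and mitochondrial reads. How overlapping genes and strand were counted is not given in the sources used here. Lines of the same gene ID were summed (21218 IDs). Symbols came from the study's supplementary gene tables, for 3569 IDs (16.8%), mostly in the first letters of the alphabet.

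Counts of the 165 oocytes were summed by size group and replicate (16 sums). edgeR (version 4.0.16) with filterByExpr (minimum count 10, minimum total 15), TMM, 8 size groups and the replicate block was used, and adjusted p below 0.05 called a gene. The same model took single oocytes as units. The standard error is the fold change over the square root of F. Same-numbered sums deviated together in all 28 pairs of groups (correlation 0.576 to 0.836), and replicates are library batches, so the replicate pairs the sums. Measures per oocyte used 100000 permutations within replicate, and all arrangements where replicate 2 stood alone. Named genes were the 15 with the smallest p in each direction in the sums and of the same sign in both replicates, the 3 smallest of each list, all oocyte markers and mitochondrial genes, and 2 IDs without a symbol per direction. Other called or list genes named (AURKC, AURKA, CDK1, AP3B1 and BAZ1A among them) were chosen after their values were seen. Members and lists were chosen with earlier results of these data known. Alternatives were no block, RLE, DESeq2 (version 1.42.0), no filter, ComBat-seq counts (sva 3.50.0), fits of the groups compared only, thinning to 250000 counts, all 179 oocytes, and leaving out sums or oocytes. The code was tested on simulated data. R 4.3.3 and Python 3.11.15 were used.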

Additional observations from a re-analysis of the deposited data

How the results depend on the processing

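Calls in the sums (0 higher, 1 lower) became 0 and 0 without the replicate block (238 genes at an unadjusted p under 0.05), with 250000 counts per oocyte (1271) and with all 179 oocytes (1015). They became 11, of them 2 higher, with DESeq2, 4, of them 0 higher, without the filter and 16, of them 2 higher, with only the 4 sums. Single oocytes as units gave 518 (93 higher), ComBat-seq counts of them 819 (122 higher), and the 33 oocytes alone 434 (87 higher). Leaving out 1 sum gave 0 to 295 calls (0 to 2 higher, 0 to 293 lower), the most without the replicate 2 sum of 110–119 μm and 0 without either sum of >120 μm (903 and 1425 unadjusted). The lone sum is then assumed to vary like the others. With RLE, and without the deepest oocyte or each replicate 2 oocyte >120 μm, the 1 call was DMAC1.

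The following alternatives were chosen after seeing the data. In the single-oocyte fit, replicate 1 alone gave 1539 calls (721 higher), replicate 2 alone 0 (0 higher, 312 unadjusted), leaving out the deepest oocyte 540 (42 higher) and RLE 476 (116 higher). In the fit of the 33 oocytes alone, leaving out each in turn gave 38 to 1034 calls, 7 to 342 of them higher. In total, 18 oocytes moved the 434 calls by over 1.5 times. In replicate 1 these were, at 110–119 μm, those of 111.95 (49 calls), 112.50 (38), 115.00 (149), 116.83 (168), 117.32 (143) and 118.77 μm (76), and at >120 μm those of 121.50 (61.8% of 434), 123.30 (57 higher and 202 lower), 125.18 (55), 125.60 (62), 126.48 (172), 129.89 (91) and 134.38 μm (51 higher and 181 lower). In replicate 2 they were those of 114.51 (192), 117.50 (36 higher and 162 lower), 126.00 (145), 133.69 (161) and 135.00 μm (1034). The causes were not tested.

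Some list medians moved beyond the spread of the replicates, and those of cleavage and polyadenylation, the chaperonin, chromatin readers, vesicle coats, the mitochondrial genome and nuclear ATP synthase and cytochrome c oxidase turned sign under at least 1 alternative. For the cyclin list they were −0.07 (single oocytes) and −0.04 (all 179), and for cullins −0.04 (single oocytes). For splicing they were −0.11 (single oocytes), −0.12 (33 oocytes), −0.06 (thinned) and −0.04 (all 179), and −0.28 to −0.05 with 1 sum or oocyte left out. For cleavage and polyadenylation they were 0.04 (ComBat-seq) and −0.29 (thinned), and −0.18 to 0.30 with 1 left out. For the chaperonin they were −0.01 (RLE, DESeq2 and no filter), −0.08 (single oocytes, and without the deepest oocyte), −0.15 (ComBat-seq), −0.11 (33 oocytes), 0.05 (4 sums), −0.09 (thinned) and −0.05 (all 179), and −0.07 to 0.00 with 1 left out, and for chromatin readers −0.11 to 0.18.

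The 368.5 more genes detected at >120 μm became 353.5 in replicate 1 alone, 334.7 in replicate 2 alone, 206.3 with all deposited oocytes and 55.6 with all counts, none past the threshold. The mitochondrial share was 0.147 points higher, not lower, in replicate 2 alone. Leaving out 1 sum reversed 7 of 79 named genes, with ranges of −1.89 to 0.18 for ATP8, −1.60 to 0.64 for ATP6, −1.66 to 0.61 for COX1, −0.06 to 0.86 for CCT3, −0.90 to 0.03 for BTG4, −0.91 to 0.18 for ASZ1 and −0.67 to 0.02 for CCNB3. No limit set by depth was measured, and the replicate 2 sum of >120 μm, of 4 oocytes, held the fewest counts (4467434).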

Other observations

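Among the genes called with single oocytes that belong to none of the lists above, the following were chosen after their values were seen. They come from no list, only genes with a symbol could be named, and with 425 genes lower and 93 higher in all, most genes picked in this way are lower. They are given as single genes. CEP295, CEP57L1, CEP44, CEP63, CNTRL and AKAP9, which encode proteins of the centrosome or centriole, fell, with log2 fold changes of −0.96, −0.87, −0.70, −0.68, −0.99 and −0.81, and CEP83, of the same kind, rose by 0.77 (SE 0.19, edgeR adjusted p = 0.00973), from a median of 192 CPM to one of 350 CPM. CEP295 had medians of 133 and 53.9 CPM (edgeR adjusted p = 0.0255).

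Among nuclear genes for mitochondrial proteins some fell and some rose. APOO, of the complex that shapes the inner membrane, had medians of 989 and 580 CPM (edgeR adjusted p = 0.0119), with log2 fold changes of −1.23 in replicate 1 and −0.46 in replicate 2. COX20, an assembly factor of cytochrome c oxidase, had 76.4 and 48.2 CPM (−0.91, adjusted p = 0.0316), and CISD1, COQ3 and ACAT1 had log2 fold changes of −0.81, −0.72 and −0.67. AFG3L2, a protease of the inner membrane, and C1QBP, of the matrix, rose, by 0.53 and 0.57. Of the autophagy genes ATG5 fell by 0.88 and ATG3 by 0.85 while ATG4D rose, and the lysosomal protease gene CTSB rose by 0.77 beside CTSD. MEI4, which is needed for the double-strand breaks of meiosis, had a median of 2.11 CPM in the smaller oocytes and of 0 in the larger (−2.36, adjusted p = 0.0231). CALM2, a calmodulin gene, was the most abundant named gene that fell, with medians of 4372 and 2829 CPM (−0.92, adjusted p = 0.0368), and ACCSL had 2507 and 5135 CPM (0.68, adjusted p = 0.0493) with a change of 0.01 in replicate 2 alone.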
